A study of Mus musculus with 4 samples.

Results

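The comparison described here set mouse embryonic stem cells (ESCs) treated with an inhibitor labelled SO against ESCs in which the lactate dehydrogenase B gene was knocked out (Ldhb_KO). It used 2 of the 4 libraries of the series, 1 a side. The 4 groups were wild-type cells of the E14 line (WT), SO (wild-type genotype, SO treatment), an Ldha knockout (Ldha_KO) and Ldhb_KO. All were cultured with serum and the cytokine LIF on gelatin, and their polyadenylated RNA was sequenced. The labels leave SO unexplained and do not say whether a knockout line was 1 clone. Dose and duration of the treatment were not given in the sources used here. In its title the series concerns the role of Ldha in the lactylation of the histone deacetylase Hdac1 and in the 2-cell-like state, so the comparison asks how a lactate dehydrogenase knockout outside Ldha differs from the treated cells.

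The deposited values were taken as FPKM, that is, fragments counted on a gene and divided by its length and by the library's depth. A gene was kept where it reached an FPKM of 1 in SO or in Ldhb_KO, which held for 12930 of 25170 gene symbols. Its difference was log2(FPKM + 1) in SO minus that in Ldhb_KO, and it was called higher or lower in SO at a size of 1 or more, which is 2-fold on that scale. For a gene with low values this scale shows less than the true change. No library had a replicate, so no value has an error and no test was possible. Each difference compares 2 libraries, not 2 conditions, and fewer cells with a transcript cannot be told apart from less of it per cell.

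Lactate dehydrogenase is a tetramer that interconverts pyruvate and lactate. Ldha encodes the subunit favoured in glycolytic cells and Ldhb the subunit favoured in oxidative tissue. Lactate can also serve as the source of lactylation, a modification of lysines in histones and other proteins. In ESC cultures a small, changing fraction of cells enters a 2-cell-like state. These cells express Zscan4 genes, the transcription factor Dux and its targets, and other transcripts of the 2-cell embryo. Amino acid shortage acts through the kinase Gcn2 and the transcription factor Atf4, which raises genes for amino acid synthesis, amino acid import and tRNA charging.

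SO and Ldhb_KO were alike over most genes. The median difference was 0.00, the 10th and 90th percentiles were -0.54 and 0.48, and 84.8% of the kept genes lay within 1.5-fold. SO was higher for 205 genes (1.59% of those kept) and lower for 264 (2.04%), and at 4-fold for 28 and 19. The genes nearest the threshold had differences of 1.00186 inside it and 0.999855 outside it. Of the genes higher in SO, 64 were under 1 in Ldhb_KO and 8 were listed at 0 there. Of those lower in SO, 70 were under 1 in SO and 13 were listed at 0. The WT and Ldha_KO levels place each difference among the 4 libraries. The call itself puts Ldhb_KO above SO for the genes lower in SO, and SO above Ldhb_KO for those higher. Counts of the highest or lowest library among called genes, here and in the lists below, are therefore partly fixed by the call. Among the 264 lower in SO, Ldhb_KO was the highest of the 4 libraries for 238 and SO the lowest for 177. Among the 205 higher in SO, SO was the highest of 4 for 167 and Ldhb_KO the lowest for 133.

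**Figure D1:**
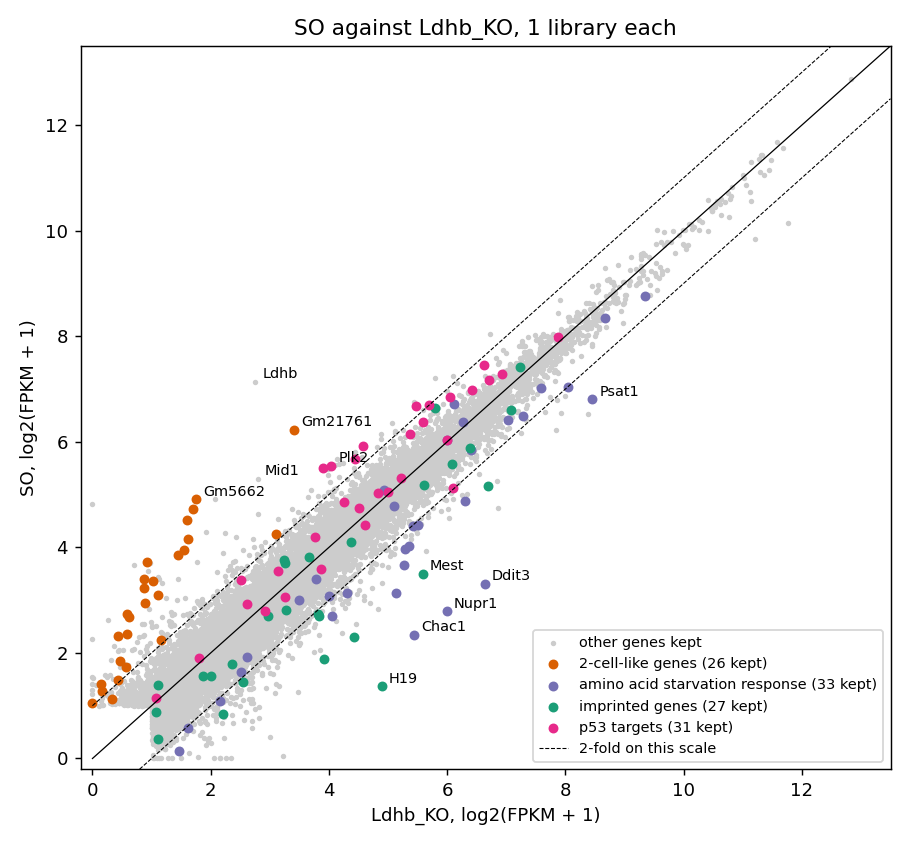
Level of each kept gene in SO (vertical) against Ldhb_KO (horizontal), both as log2(FPKM + 1), 1 library each, with the line of equality and the lines of a 2-fold difference. Most genes follow the line of equality, 25 of the 26 2-cell-like genes lie above the upper 2-fold line, and Ddit3, Nupr1, Chac1 and H19 lie farthest below the lower line among the coloured genes.

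The ESC identity of both libraries was checked first. All 10 ESC markers were kept and none was called. Pou5f1, the core pluripotency factor Oct4, had FPKM of 1330.1 in WT and 1115 in SO, with 972 in Ldha_KO and 1084 in Ldhb_KO. Of 15 fibroblast or feeder markers 4 were kept and none was called. The summed FPKM of the 15 was 49.6 in SO and 55.1 in Ldhb_KO. Most of it was Thy1, at 42.0 in SO and 46.2 in Ldhb_KO, beside 47.4 in WT and 36.9 in Ldha_KO. Pdgfrb had 3.35 in SO, 3.63 in Ldhb_KO and 2.80 in Ldha_KO, above 0.949 in WT. Col1a1 and Twist1, the other kept markers, differed by -0.097 and -0.47. Lum, Dcn and Fap were listed at 0 in all 4 libraries. They and Pdgfrb were named after their values were seen. Depth differed little, the value worth 1 read in Ldhb_KO being 0.994 of that in SO. Of 1421 genes low in both, the 338 near the commonest ratio had ratios spanning 0.476% from the 10th to the 90th percentile. The same span was 0.0169% for SO with WT and 0.226% for Ldha_KO with Ldhb_KO. So by this span SO paired more closely with WT, and Ldhb_KO with Ldha_KO, than SO and Ldhb_KO did with each other. The value of 1 read itself did not give this pairing, WT being at 1.05 of SO and Ldhb_KO at 0.946 of Ldha_KO. The remaining pairs of libraries were not measured. The labels name no batch. Chromosome medians of the difference ran from -0.05 to 0.06.

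Among the lactate dehydrogenase genes the libraries matched their labels. The FPKM of Ldhb was 76.5 in WT and 139 in SO, with 158 in Ldha_KO and 5.74 in Ldhb_KO, so it was lowest in the library of its knockout. Its difference was 4.38, a 24.3-fold higher level in SO. The FPKM of Ldha was 1774 in WT and 1711 in SO, with 154 in Ldha_KO and 2237 in Ldhb_KO, a difference of -0.39. SO thus held the Ldha transcript at close to the WT level, and Ldhb_KO was the highest of the 4. Ldhc, the testis-type subunit gene, lay at 2.58 in SO and 3.11 in Ldhb_KO. Of the 11 genes of the list found, which also holds lactate carriers and their chaperones, 9 were kept and Ldhb was the only one called. Emb, which encodes embigin, a chaperone of lactate carriers, came next at -0.62, with FPKM of 86.2 in WT and 46.2 in SO, with 56.6 in Ldha_KO and 71.4 in Ldhb_KO. The lactate carrier genes Slc16a1 and Slc16a3 differed by 0.13 and -0.02, and these 3 genes were chosen after their values were seen. Hdac1, named in the series title, had FPKM of 49.4 in SO and 44.7 in Ldhb_KO, a difference of 0.14, beside 56.1 in WT and 42.0 in Ldha_KO. None of the 22 genes of Hdac1 and its complexes was called. Their median of 0.02 turned to -0.0106 under scaling by the median ratio. The member farthest apart was Sap18 of the Sin3 complex, at 0.76.

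Among the 38 lists the 2-cell-like genes had the highest median. Of the 42 found, 25 were higher in SO and none was lower, where 1.59% and 2.04% of kept genes were called. Only 26 passed the filter, 15 of them through SO alone, and the remaining 16 were under 1 in both libraries and could not be called. The gene that passed without a call was Usp17ld, at 0.80, named after its value was seen. The summed FPKM of the 42 genes was 39.0 in WT and 307 in SO, with 213 in Ldha_KO and 41.0 in Ldhb_KO. For each of the 25 called genes SO was the highest of the 4 libraries, and 13 of them were under 1 in both WT and Ldhb_KO. By summed level Ldhb_KO was near WT, and SO and Ldha_KO lay above both.

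Zscan4 genes encode zinc finger proteins that mark the 2-cell-like state and take part in telomere maintenance. Zscan4c had FPKM of 2.03 in WT and 16.9 in SO, with 10.6 in Ldha_KO and 2.06 in Ldhb_KO, a difference of 2.55. Zscan4d had 1.72, 14.5, 10.5 and 1.92 in the same order, a difference of 2.41. Both were high in SO and in Ldha_KO and low in WT and in Ldhb_KO. The other members repeated this order, with differences of 2.34 for Zscan4a, 2.06 for Zscan4f and 1.39 for Zscan4b. The copies of this family are close to identical, and the share of 50-base windows found in no other annotated gene was 14.5% for Zscan4c, 13.2% for Zscan4f, 9.88% for Zscan4b, 36.4% for Zscan4a and 50.4% for Zscan4d. How the authors' counting divided shared reads among the copies was not given in the sources used here, so the level of the family is better determined than that of a copy.

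Predicted genes of the 2-cell-like list showed the highest folds. Gm5662 had FPKM of 2.21 in WT and 29.1 in SO, with 21.4 in Ldha_KO and 2.37 in Ldhb_KO, a difference of 3.16 and a 12.3-fold higher level in SO. Gm2016 had 2.91, 25.5, 21.1 and 2.25, a difference of 3.03, and Gm8300 had 2.77, 22.03, 17.8 and 2.02, a difference of 2.93. Gm21761 was the most abundant of the list, with FPKM of 11.1, 73.7, 41.7 and 9.60 and a difference of 2.82. In each of these genes the SO value exceeded the Ldha_KO value, and the other pair of libraries lay together. Unique windows made up 22.1% of Gm5662, 18.7% of Gm2016 and 73.4% of Gm8300. Gm2022, with 2.85% unique windows, differed by 2.80, and Usp17lb, of a family of ubiquitin-specific proteases, differed by 2.52 (FPKM 0.815, 9.49, 8.83 and 0.829).

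Members with mostly unique sequence also differed. Zfp352, a zinc finger gene of the early embryo with 92.9% unique windows, had FPKM of 0.186 in WT and 1.67 in SO, with 0.597 in Ldha_KO and 0.106 in Ldhb_KO, a difference of 1.27. Tcstv3, with 68.6% unique windows, had 1.45, 7.52, 7.23 and 1.16, a difference of 1.98. Fgf1, a fibroblast growth factor, had 0.406, 2.31, 1.43 and 0.482, a difference of 1.16. Ddit4l, an inhibitor of mTOR signalling, had 3.20, 18.0, 14.3 and 7.65, a difference of 1.13, with Ldhb_KO above WT. Arg2, mitochondrial arginase, had 0.772, 3.76, 2.46 and 1.23, a difference of 1.09. Fgf1, Ddit4l and Arg2 were chosen after their values were seen. Zfp352 and Fgf1 passed the filter through SO alone, and Zfp352, Fgf1 and Arg2 were left out by the filter of 5. Over the 26 kept members the share of unique windows ran from 2.85% to 100%, with a median of 54.0% and 11 members under 50%. Dux, the factor that starts the 2-cell-like programme, was listed at 0 in WT and Ldhb_KO and reached only 0.161 in SO and 0.254 in Ldha_KO, below the filter. Tcstv1 was likewise below it, at 0.232 in SO and 0.116 in Ldhb_KO.

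**Figure D2:**
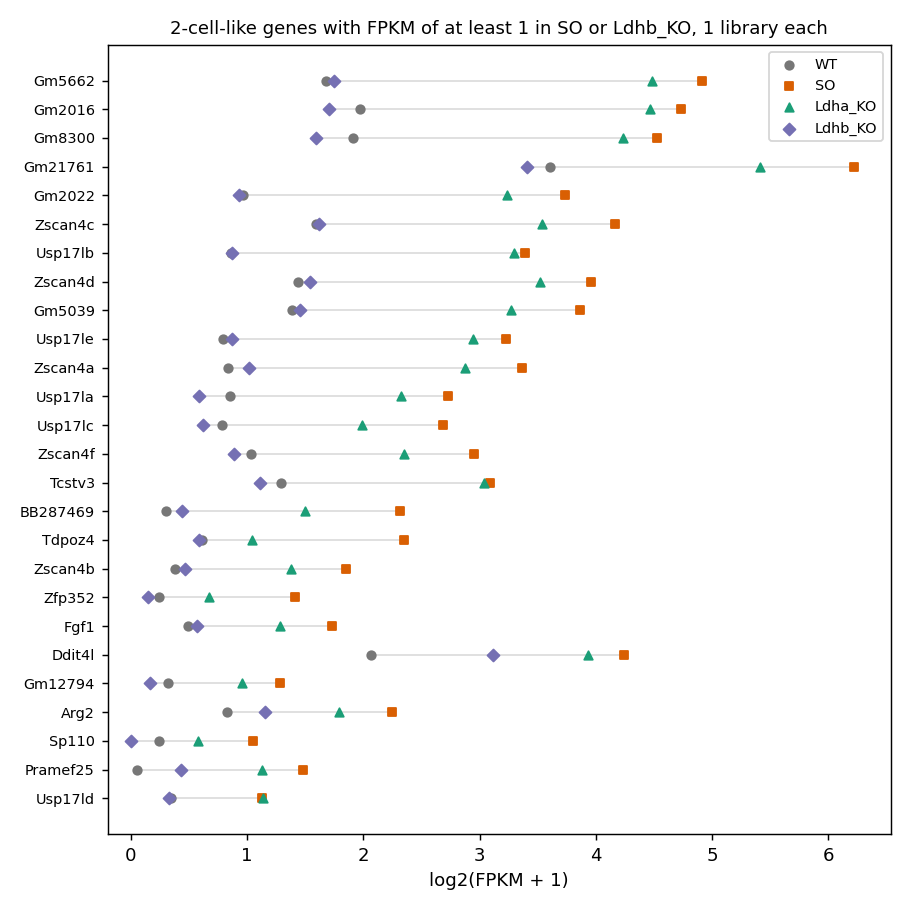
Level of the 26 kept 2-cell-like genes in WT, SO, Ldha_KO and Ldhb_KO as log2(FPKM + 1), 1 point a library, ordered by the difference between SO and Ldhb_KO. SO lies to the right of Ldhb_KO for all 26 genes, Ldha_KO usually lies just left of SO, and WT usually lies near Ldhb_KO.

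Known regulators of the 2-cell-like state did not show such differences. Of 28 found, 27 were kept and none was called in either direction, and their median was 0.10. Tbx3, a transcription factor active in ESCs, differed by 0.90 with FPKM of 88.0 in WT and 101 in SO, with 94.2 in Ldha_KO and 53.3 in Ldhb_KO. Ehmt2, a histone H3 lysine 9 methyltransferase, differed by -0.52, and Setdb1, another such enzyme, by 0.37.

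Among the 38 lists the amino acid starvation response had the lowest median. Of 34 genes found, 33 were kept, 2 of them (Fgf21 and Vldlr) through Ldhb_KO alone. SO was lower for 17 and higher for none, beside 2.04% lower and 1.59% higher among all kept genes. Of the 33, 29 had a difference below 0, and the median was -1.02. For all 17 called genes Ldhb_KO was the highest of the 4 libraries, and for 10 of them SO was the lowest. WT was within 2-fold of SO on the log scale for 15 of the 17 and within 2-fold of Ldhb_KO for 8. The summed FPKM of the list was 2290 in WT and 1848 in SO, with 2286 in Ldha_KO and 3111 in Ldhb_KO.

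Atf4 binds composite C/EBP-ATF response elements, whose core TGATGNAA was searched on both strands in the 250 bases upstream of each gene start. It was present in 28.6% of the 28 starvation genes with a promoter in the table, in 21.4% of 14 aminoacyl-tRNA synthetase genes, in 2.33% of all 10359 kept genes with a promoter and in 3.91% of all 27025 genes of the table. Both lists hold known Atf4 targets, so their higher shares were partly fixed by how the lists were made. Among genes lower in SO that belong to neither list the share was 4.15% of 193, and among genes higher in SO it was 3.52% of 142. A match of these letters is a description of the sequence, not evidence of a bound site. The promoters of 4 genes lower in SO are printed, with that of Asns, which holds the motif and was not called. They come from RefSeq on build GRCm38.p6, run 5′ to 3′ on the strand of the gene, and have the motif in capitals, which reads TTNCATCA where it lies on the opposite strand.
Chac1 (chr2:119350992-119351241, plus strand): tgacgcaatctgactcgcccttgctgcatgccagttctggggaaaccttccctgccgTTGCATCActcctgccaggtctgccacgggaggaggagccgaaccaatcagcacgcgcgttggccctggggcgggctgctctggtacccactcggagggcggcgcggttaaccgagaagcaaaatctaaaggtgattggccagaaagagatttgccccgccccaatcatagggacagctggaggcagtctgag
Nupr1 (chr7:126625471-126625720, minus strand): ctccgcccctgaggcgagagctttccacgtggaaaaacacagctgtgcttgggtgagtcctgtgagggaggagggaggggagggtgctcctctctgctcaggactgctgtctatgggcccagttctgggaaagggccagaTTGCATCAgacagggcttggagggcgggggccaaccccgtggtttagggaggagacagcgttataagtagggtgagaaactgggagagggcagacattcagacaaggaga
Pycr1 (chr11:120643749-120643998, minus strand): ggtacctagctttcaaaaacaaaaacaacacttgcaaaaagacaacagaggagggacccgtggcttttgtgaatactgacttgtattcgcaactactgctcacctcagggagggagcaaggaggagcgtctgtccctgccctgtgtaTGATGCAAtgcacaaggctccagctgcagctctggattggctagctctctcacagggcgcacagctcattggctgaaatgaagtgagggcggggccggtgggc
Gars (chr6:55037751-55038000, plus strand): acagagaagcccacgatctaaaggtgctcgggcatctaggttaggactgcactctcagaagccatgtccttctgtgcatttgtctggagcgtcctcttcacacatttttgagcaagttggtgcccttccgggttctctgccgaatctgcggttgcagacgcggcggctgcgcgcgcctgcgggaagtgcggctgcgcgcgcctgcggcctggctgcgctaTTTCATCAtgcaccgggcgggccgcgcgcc
Asns (chr6:7693210-7693459, minus strand): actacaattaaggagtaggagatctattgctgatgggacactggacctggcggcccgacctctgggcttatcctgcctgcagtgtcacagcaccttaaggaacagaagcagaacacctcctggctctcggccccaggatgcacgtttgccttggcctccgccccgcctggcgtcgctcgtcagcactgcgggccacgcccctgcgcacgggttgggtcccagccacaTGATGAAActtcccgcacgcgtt

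Chac1, Nupr1 and Pycr1, with the motif 186, 103 and 96 bases upstream of the start, belonged to the 4 starvation genes with the largest differences, and Gars, with the motif 23 bases upstream, is a synthetase gene. Asns has it 16 bases upstream. The remaining starvation genes with a match were Fgf21 and Vldlr, both called, and Atf3 and Pck2, which were not. So 5 of the 16 called starvation genes with a promoter held the motif (31.2%) and 3 of the 12 not called (25%).

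Ddit3, which encodes the stress-induced factor CHOP, had FPKM of 15.6 in WT and 8.90 in SO, with 21.0 in Ldha_KO and 98.3 in Ldhb_KO. Ldhb_KO stood far above the other libraries, and the difference was -3.33, an 11.04-fold lower level in SO. Nupr1, a stress-responsive chromatin protein, had 15.7, 5.91, 18.9 and 62.6, a difference of -3.20. Chac1, a glutathione-degrading enzyme and a frequent readout of Atf4, had 17.1, 4.07, 2.34 and 42.4, a difference of -3.10. Here both SO and Ldha_KO lay below WT, unlike Ddit3 and Nupr1, where only SO did.

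Enzymes that make amino acids followed. Pycr1, of proline synthesis, had FPKM of 10.6 in WT and 7.76 in SO, with 15.1 in Ldha_KO and 34.3 in Ldhb_KO, a difference of -2.01. Psat1, of serine synthesis, had 221, 111, 216 and 349, a difference of -1.65. Gpt2, mitochondrial alanine aminotransferase, had 18.0, 11.7, 10.8 and 37.8, a difference of -1.61. In Psat1 and Pycr1 SO lay below WT and Ldhb_KO above it, and in Gpt2 Ldha_KO was the lowest. The other serine pathway genes were lower in SO too, Phgdh at -1.43 (FPKM 28.4 in SO and 78.3 in Ldhb_KO) and Psph at -1.09 (20.3 and 44.3). Mthfd2 and Aldh1l2, of mitochondrial folate metabolism, differed by -1.02 and -1.05. The secreted factors Gdf15 and Stc2 differed by -1.36 and -1.16, and Trib3, a pseudokinase induced by Atf4, by -1.33. These 7 genes were chosen after their values were seen, as were those of the next 3 sentences. Atf4 itself had FPKM of 213 in WT and 130 in SO, with 218 in Ldha_KO and 264 in Ldhb_KO, a difference of -1.02 that lost its call under scaling to the same summed value, and its relative Atf5 differed by -1.32. Members that were not called included Asns, asparagine synthetase, at 297, 324, 359 and 409 with a difference of -0.33. The amino acid carrier gene Slc38a2 went the other way by value, at 0.60, and the stress-responsive Sesn2 stood at 0.05.

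Aminoacyl-tRNA synthetases attach amino acids to their tRNAs, and the genes of several are Atf4 targets. Of 21 found and kept, 5 were lower in SO and none was higher, against 2.04% and 1.59% among all kept genes, while 20 had a difference below 0 and the median was -0.62. Their summed FPKM was 2226 in WT and 1689 in SO, with 2002 in Ldha_KO and 2604 in Ldhb_KO. Sars had FPKM of 55.9 in WT and 37.3 in SO, with 62.7 in Ldha_KO and 114 in Ldhb_KO, a difference of -1.59, and Aars had 143, 92.0, 158 and 241, a difference of -1.38. Nars, Gars and Cars differed by -1.08, -1.07 and -1.03. In all 5, SO was the lowest and Ldhb_KO the highest of the 4 libraries, and WT was within 2-fold of SO on the log scale for all 5 and of Ldhb_KO for 4. Farsa, which encodes a subunit of the phenylalanine enzyme, was the only member above 0, at 0.15, and was chosen after its value was seen.

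**Figure D3:**
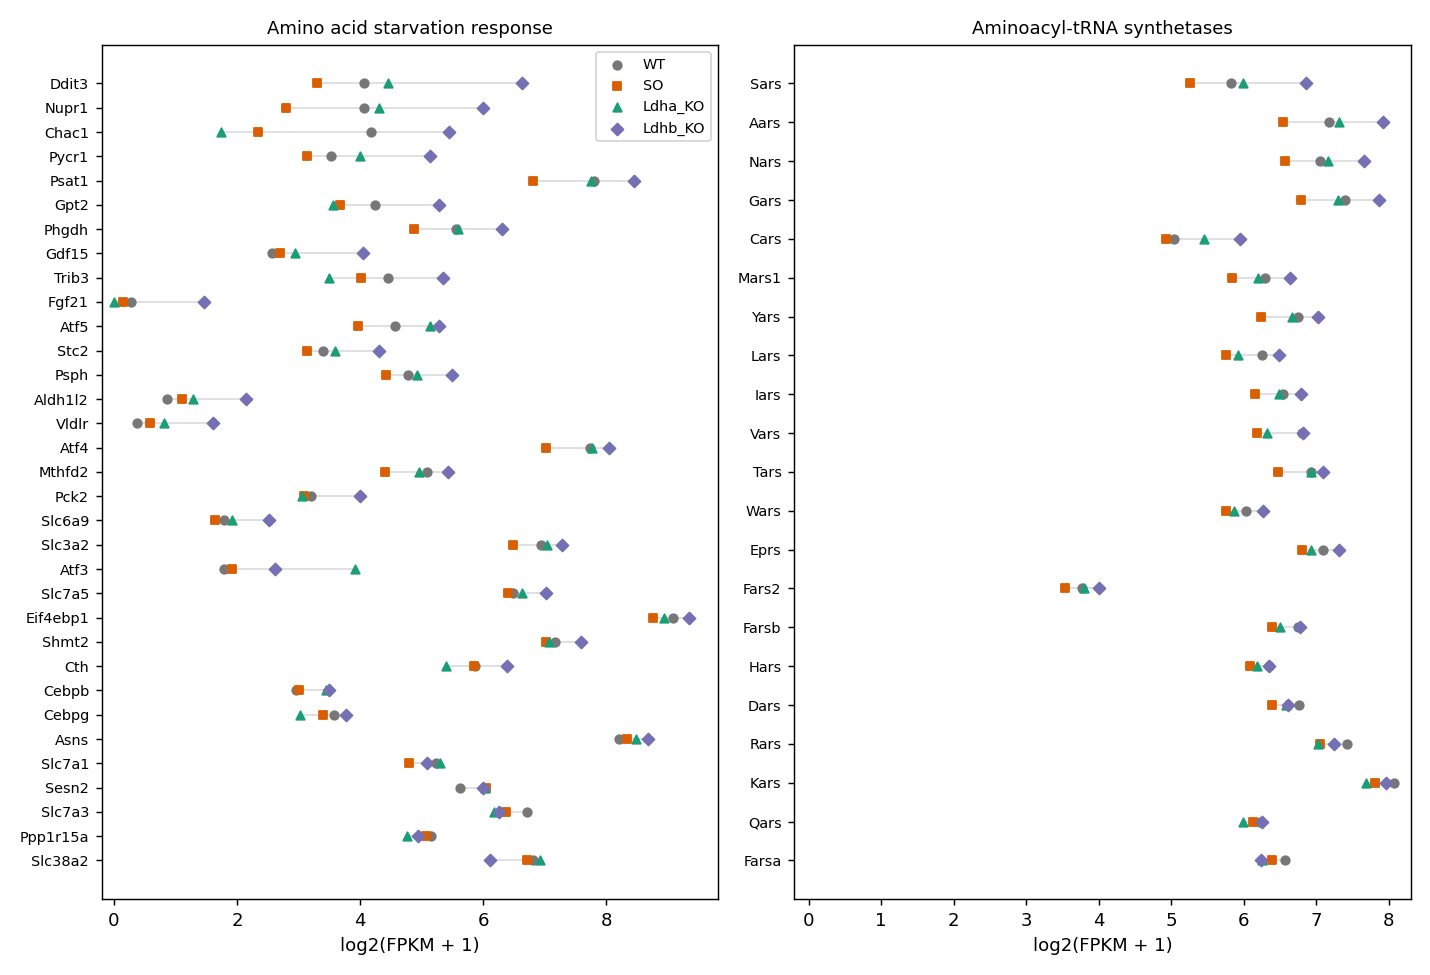
Levels of the 33 kept amino acid starvation genes (left) and the 21 aminoacyl-tRNA synthetase genes (right) as log2(FPKM + 1), 1 point a library, ordered from the most negative difference of SO and Ldhb_KO. Ldhb_KO lies farthest right and SO often farthest left among the genes at the top, and the 4 libraries draw together toward the bottom.

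Other stress programmes differed less. Of 20 genes of the unfolded protein response, Herpud1, a factor of endoplasmic reticulum protein degradation, was the only one called. Its FPKM was 22.05 in WT and 11.3 in SO, with 10.4 in Ldha_KO and 31.0 in Ldhb_KO, a difference of -1.38, while the list median was 0.14. None of 14 heat shock genes and none of the 24 kept Nrf2 and glutathione genes was called, with medians of 0.31 and -0.10.

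p53 targets lay on the SO side. All 31 were kept, 6 were higher in SO and none was lower, beside 1.59% and 2.04% of all kept genes, and 26 had a difference above 0 and the median was 0.42. Their summed FPKM was 1264 in WT and 1869 in SO, with 1648 in Ldha_KO and 1312 in Ldhb_KO. WT was the lowest of the 4 libraries for all 6 called genes, and SO was the highest for 5 of them. Pmaip1, which encodes the pro-apoptotic protein Noxa, had FPKM of 11.9 in WT and 44.3 in SO, with 23.9 in Ldha_KO and 13.99 in Ldhb_KO, a difference of 1.60. Plk2, a kinase of the polo family, had 6.89, 45.9, 64.5 and 15.4, a difference of 1.52, and was the one gene of the 6 with its highest level in Ldha_KO. Btg2, an antiproliferative factor, had 12.2, 59.4, 29.6 and 22.8, a difference of 1.35.

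Mdm2, the ubiquitin ligase that limits p53, had FPKM of 41.9 in WT and 103 in SO, with 81.1 in Ldha_KO and 50.9 in Ldhb_KO, a difference of 1.003 that lost its call under scaling by the median ratio. Perp and Trp53inp1 differed by 1.22 and 1.21. Cdkn1a, the cell cycle inhibitor p21, differed by 0.56 and was not called. Gadd45a, which is also induced by Atf4, had the opposite sign, at -0.98, with FPKM of 38.8, 33.7, 22.1 and 67.5. Under that scaling Gadd45a was called lower. Cdkn1a and Gadd45a were chosen after their values were seen. Of 35 cell cycle and replication genes the imprinted inhibitor gene Cdkn1c was the only one called.

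Imprinted genes are expressed from 1 parental allele. Of 35 found, 27 were kept, 3 of them through Ldhb_KO alone, and 9 were lower in SO and none was higher, against 2.04% and 1.59% among all kept genes. Over these 27 the median was -0.48. The summed FPKM of the list was 746 in WT and 649 in SO, with 766 in Ldha_KO and 863 in Ldhb_KO. H19, a maternally expressed noncoding RNA, had FPKM of 1.65 in WT and 1.57 in SO, with 6.37 in Ldha_KO and 28.7 in Ldhb_KO, a difference of -3.53 and an 18.3-fold lower level in SO. SO was at the WT level, and both knockout libraries were higher. Igf2, the gene beside H19, lay at 1.63 in SO and 1.15 in Ldhb_KO, a difference of 0.29, and was chosen after its value was seen.

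The same order of libraries held for noncoding RNAs of the Dlk1 to Dio3 locus. Meg3 had FPKM of 3.51 in WT and 2.70 in SO, with 12.8 in Ldha_KO and 14.03 in Ldhb_KO, a difference of -2.02. Rian had 4.65, 3.93, 20.5 and 20.6, a difference of -2.13, and Mirg had 2.15, 1.71, 4.19 and 4.85, a difference of -1.11, and was chosen after its values were seen. Mest, a paternally expressed gene of another locus, had 13.6, 10.3, 47.1 and 47.2, a difference of -2.09. In Meg3, Rian and Mest the knockout libraries were nearly equal and stood apart from WT and SO. In the pairs measured, the span of the read-value ratios was also narrower for SO with WT and for Ldha_KO with Ldhb_KO. The part of that pairing in these differences was not tested. Plagl1, a zinc finger gene, was likewise higher in both knockout libraries, with 0.713, 0.793, 4.93 and 3.61 and a difference of -1.36.

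Phlda2, Cdkn1c and Ascl2 are imprinted genes of 1 cluster that act in the placenta. Phlda2 had FPKM of 94.2 in WT and 34.6 in SO, with 65.8 in Ldha_KO and 102 in Ldhb_KO, a difference of -1.54, so SO was low and Ldhb_KO near WT. Cdkn1c had 10.7, 5.68, 8.53 and 13.1, a difference of -1.08 of the same shape. Ascl2 had 6.77, 5.52, 3.60 and 13.2, a difference of -1.12, with SO near WT and Ldhb_KO high. Peg10, a retrotransposon-derived gene chosen after its value was seen, had the largest positive difference of the list, at 0.85.

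**Figure D4:**
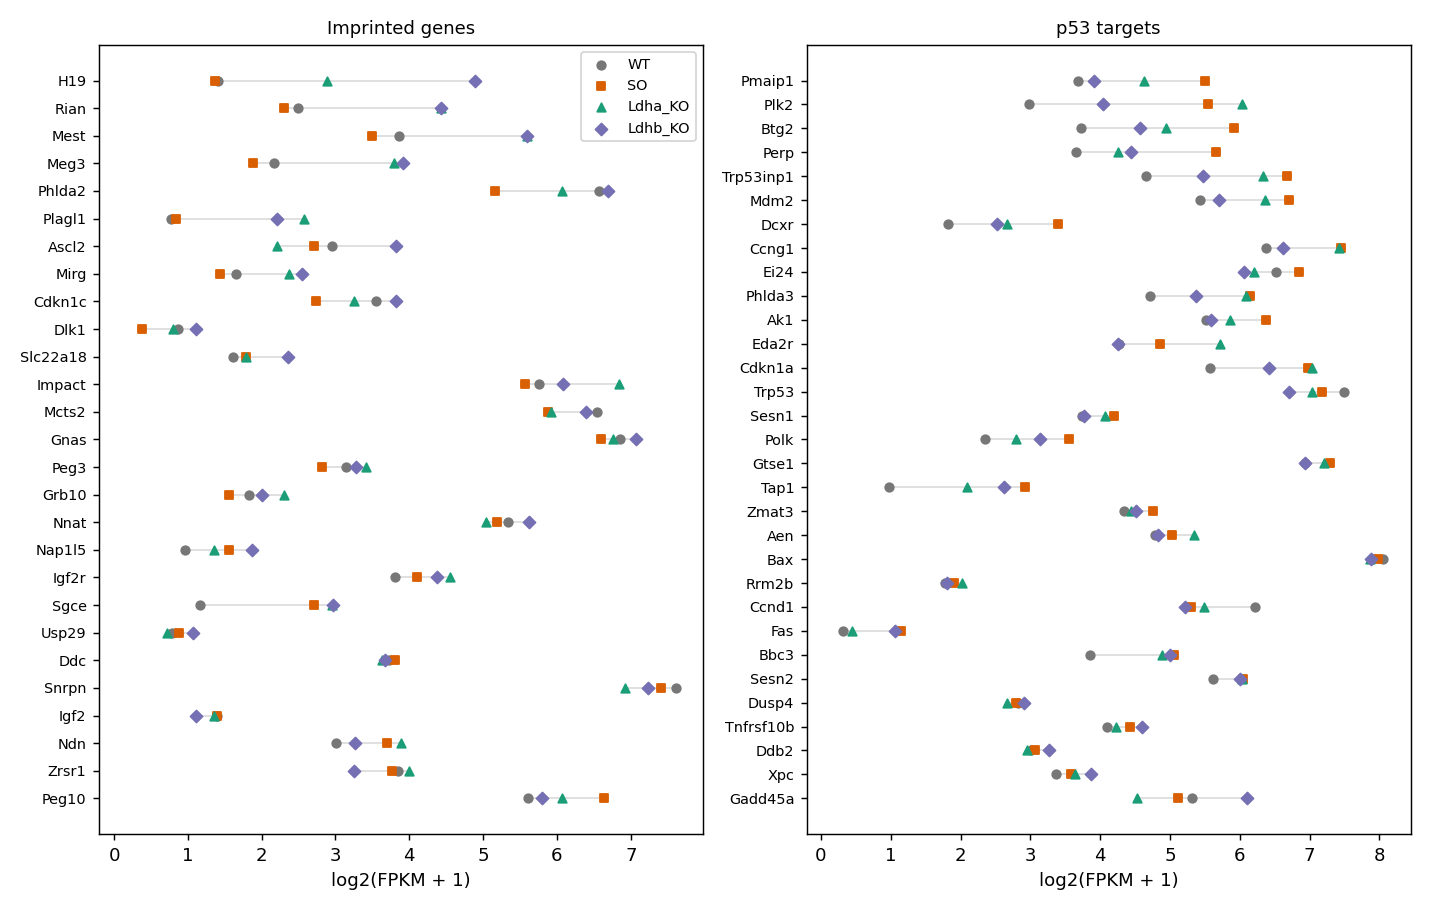
Levels of the 27 kept imprinted genes (left, from the most negative difference) and the 31 p53 targets (right, from the most positive) as log2(FPKM + 1), 1 point a library. H19, Rian, Mest and Meg3 lie far left in SO and WT, and the 6 p53 targets at the top lie to the right in SO and leftmost in WT.

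Germline and meiosis genes also included called genes on the knockout side. Of 33 found, 28 were kept, 7 were lower in SO and none was higher, against 2.04% and 1.59% among all kept genes. Piwil4, a Piwi protein of the male germline, had FPKM of 1.73 in WT and 1.08 in SO, with 2.53 in Ldha_KO and 5.61 in Ldhb_KO, a difference of -1.67. Smc1b, a meiotic cohesin gene, had 13.7, 11.7, 18.8 and 28.9, a difference of -1.23. Sycp3, of the synaptonemal complex, had 23.5, 17.7, 47.0 and 40.8, a difference of -1.16, with both knockout libraries above WT. Tex14, of germ cell bridges, and the X-linked genes Xlr3a and Xlr3b differed by -1.31, -1.37 and -1.18. The summed FPKM of the list was higher in Ldha_KO (685) than in Ldhb_KO (510), SO (418) or WT (353). Dppa3, a maternal factor that is also a pluripotency marker, had 4.03, 4.24, 0.952 and 10.3, a difference of -1.10, and was the only called gene of the 29 pluripotency genes.

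The core pluripotency genes differed little. Nanog had FPKM of 503 in WT and 541 in SO, with 591 in Ldha_KO and 424 in Ldhb_KO, a difference of 0.35. Sox2 had 371, 344, 204 and 389, and Esrrb had 240, 207, 220 and 248. Klf4 had 133 in SO and 142 in Ldhb_KO, and Zfp42, also known as Rex1, had 523 and 500.5. The median of the 29 pluripotency genes was 0.04. Of 18 kept formative and primed genes 2 were higher in SO and none was lower, beside 1.59% and 2.04% of all kept genes. These were Foxd3 and Otx2, transcription factors of the exit from naive pluripotency. Foxd3 had FPKM of 18.9 in WT and 16.96 in SO, with 12.96 in Ldha_KO and 5.54 in Ldhb_KO, a difference of 1.46, and Otx2 had 61.6, 69.4, 25.3 and 28.4, a difference of 1.26. For both, SO was near WT and Ldhb_KO was low.

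Signalling readouts differed in both directions. Egr1, an immediate early gene of ERK signalling, had FPKM of 68.1 in WT and 25.9 in SO, with 47.6 in Ldha_KO and 116 in Ldhb_KO, a difference of -2.12, and Fgf17, a growth factor gene, differed by -1.79. They were the 2 genes called among the 20 kept of FGF and ERK feedback, beside 2.04% lower and 1.59% higher among all kept genes. Of these 20 genes, 10 had a difference above 0 and 10 below. Junb and Ier3, immediate early genes also counted with the LIF and Stat3 pathway, differed by -1.21 and -1.08. They were the 2 genes called of the 18 kept of that pathway, against the same background. The list of immediate early genes, with 19 kept, was split. In it 3 were lower in SO (Egr1, Junb and Ier3) and 3 were higher (Myc, Btg2 and Ccn2, the last at 1.10). Myc, the growth-promoting transcription factor, had 66.5, 40.5, 12.7 and 14.8, a difference of 1.40, with both knockout libraries well below WT. It was the only one called of the 25 genes of the Myc network and ribosome biogenesis, whose median was 0.08. Bmp4, a ligand that acts with LIF on ESCs, had 58.1, 54.7, 20.3 and 20.8, a difference of 1.35 of the same shape. No gene of the Wnt (28 found) or Nodal and Lefty (22 found) lists was called. Nodal lay just under the threshold at 0.97 and was called under scaling to the same summed value. Lefty1 and Lefty2 lay at -0.90 and 0.89. Wnt6 and Fzd10, outside the Wnt list, were higher in SO at 1.87 and 1.02, and were chosen after their values were seen. Wnt6 passed the filter through SO alone, at 6.09 beside 0.937 in Ldhb_KO.

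Energy metabolism gave few calls. Of 21 glycolysis genes 20 were kept, 17 had a difference below 0 and the median was -0.29, and the muscle-type mutase gene Pgam2 was the only one called, at 1.01 (FPKM 3.13 in WT and 11.1 in SO, with 9.48 in Ldha_KO and 4.97 in Ldhb_KO). Of 32 hypoxia targets found, 21 of the 31 kept were below 0 with a median of -0.25. Bnip3, a mitophagy receptor, was lower in SO, with FPKM of 75.9 in WT and 116 in SO, with 110 in Ldha_KO and 252 in Ldhb_KO and a difference of -1.11. Ddit4, an mTOR inhibitor, had 28.1, 114, 50.9 and 213, a difference of -0.90 that was not called and was chosen after its value was seen. Both genes were above WT in all 3 other libraries and highest in Ldhb_KO. None of 24 genes of the TCA cycle and pyruvate entry, 30 of the respiratory chain and 30 of cholesterol and fatty acid synthesis was called. The TCA list had 18 of 24 genes below 0 and a median of -0.15, and the respiratory chain list had 17 of 30 above 0 and a median of 0.03 that turned to -0.00227 under scaling by the median ratio. The cholesterol and fatty acid list had 24 of 29 kept genes below 0 and a median of -0.28, and Scd1, a fatty acid desaturase gene, missed the threshold at -0.999.

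Each matrix and lineage list held a few called genes, beside 1.59% higher and 2.04% lower among all kept genes. Of 35 kept matrix and adhesion genes 3 were higher in SO and 1 was lower. Of 17 kept primitive endoderm genes 2 were higher, and of 16 kept trophectoderm genes 1 was higher and 2 were lower. Of the 5 kept mesoderm genes 1 was higher, and of the 7 kept neuroectoderm genes 2. Col4a1, a basement membrane collagen gene of the primitive endoderm list, had FPKM of 6.67 in WT and 23.8 in SO, with 17.1 in Ldha_KO and 5.96 in Ldhb_KO, a difference of 1.84, and its partner Col4a2 differed by 1.01. Serpine2, a protease inhibitor, had 11.5, 80.8, 45.6 and 32.3, a difference of 1.30. Anxa8, an annexin, had 0.138, 7.19, 2.92 and 1.38, a difference of 1.79. For these genes SO was the highest of the 4 libraries. Anxa8 was the only called gene of the 15 kept annexin and S100 genes, of which 11 had a difference below 0 (median -0.13). Cldn7, a tight junction gene, was lower in SO at -1.56 (FPKM 9.08 in SO and 28.8 in Ldhb_KO). Eomes and Neurod1, of mesoderm or trophectoderm and of neural fate, were higher at 1.10 and 1.07, and Tfap2c, of trophectoderm and naive cells, was lower at -1.06. Of the 17 mesoderm genes 5 were kept, and of the 18 neuroectoderm genes 7, so most genes of these lineages were under 1 in both libraries.

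Several of the largest differences fell outside the lists. Ly6a, which encodes the surface antigen Sca-1, had FPKM of 4.63 in WT and 29.3 in SO, with 7.27 in Ldha_KO and 3.21 in Ldhb_KO, a difference of 2.85, and so was high in SO alone. Pramel7, a Prame family gene of the early embryo, had 2.09, 11.6, 3.04 and 0.618, a difference of 2.96 of the same shape. Mid1, a ubiquitin ligase gene, had 37.0, 38.3, 65.7 and 5.95, a difference of 2.50, so the low level belonged to Ldhb_KO. Snora74a, a small nucleolar RNA with no unique window, was listed at 0 in WT and in Ldhb_KO and stood at 27.5 in SO and 16.2 in Ldha_KO, so its value is uncertain. On the other side, Amd1, an enzyme of polyamine synthesis, had 0.0276 in the other 3 libraries and 8.31 in Ldhb_KO. It has 21.9% unique windows, and its copy Amd2, chosen after its values were seen, had 46.7 in SO and 38.4 in Ldhb_KO, so the 2 are uncertain apart. Mef2b, a transcription factor gene, had 1.68, 1.40, 5.62 and 10.2, a difference of -2.22, and Serpinf1 had 2.17, 0.692, 3.70 and 6.02, a difference of -2.05.

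**Figure D5:**
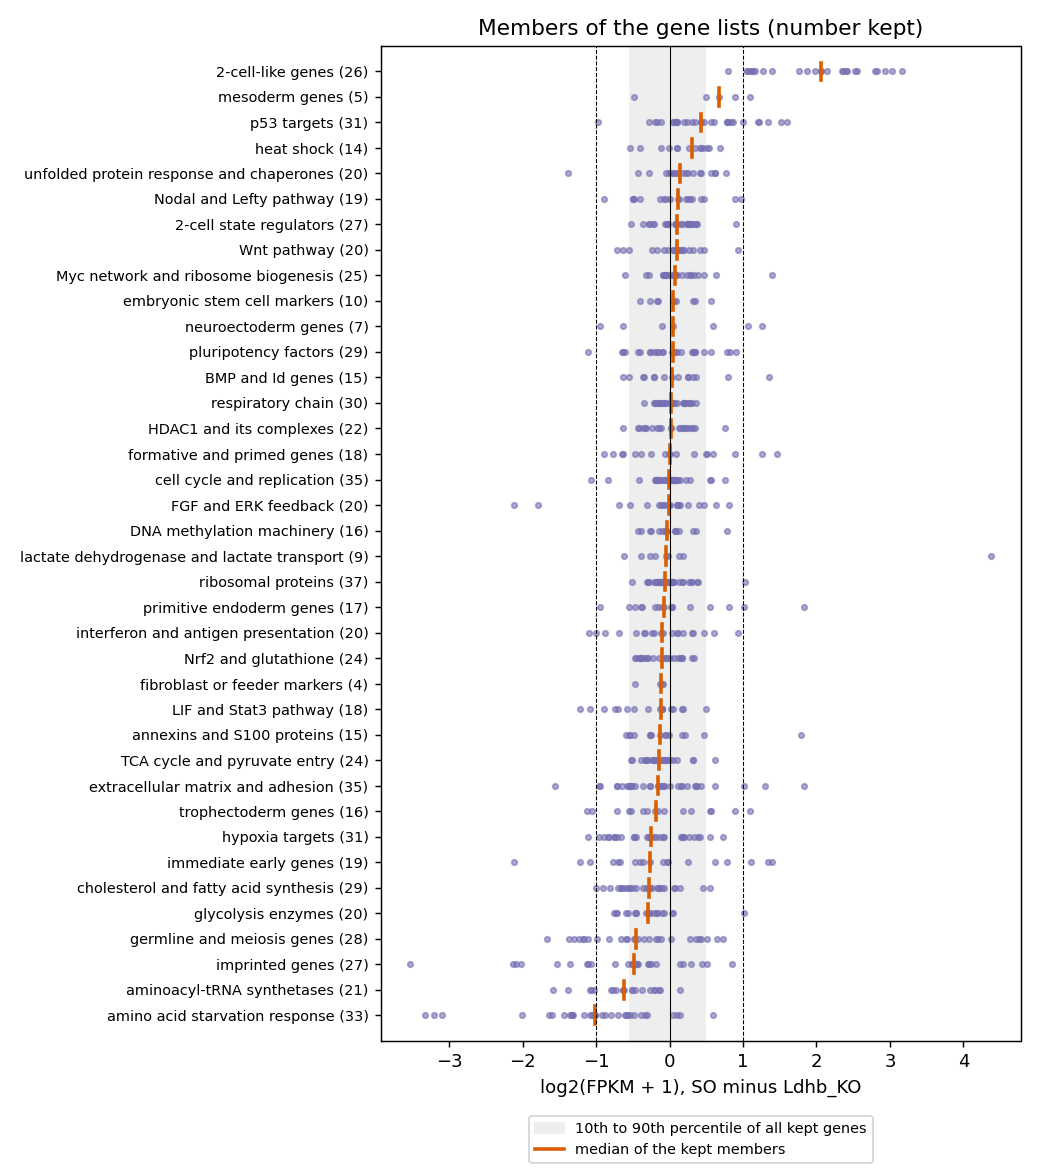
Differences of log2(FPKM + 1) between SO and Ldhb_KO for the kept members of each gene list, 1 point a gene, with each list's median as a bar, the 10th to 90th percentile range of all kept genes shaded (-0.54 to 0.48) and dashed lines at 2-fold. The 2-cell-like list is centred above the shaded range and the amino acid starvation and aminoacyl-tRNA synthetase lists below it, and the other medians fall within it apart from the 5 kept mesoderm genes.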

How the data were processed

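RNA sequencing gave 1 library for each of WT, SO, Ldha_KO and Ldhb_KO, grouped by the sample labels. Per the submitters' processing notes, the build was mm9, and edgeR 3.26.8, HTSeq 0.11.2, SAMtools 1.9 and Bowtie2 2.3.4.3 were used. The step each tool served, like the gene annotation, was not given in the sources used here. A deposited table lists a single value for a gene symbol, taken here as FPKM from its range and steps, since no label or header names the authors' unit. It may equally be RPKM, and read depth is unknown. Summed FPKM ran from 471595 (SO) to 526316 (WT).

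From these, log2(FPKM + 1) in SO minus that in Ldhb_KO was computed for genes with at least 1 in either library and called at 1 or more in size (Python 3.11.15, pandas 2.3.3, numpy 2.4.6), after a test on simulated data. The background for counts of a list's members is the percentage of all kept genes called, and that for a list's median is the median of all kept genes, 0.00. The comparison and its 38 gene lists, with 942 of 950 entries found, were chosen with earlier results of these data known. Genes were named where they were Ldha, Ldhb, Ldhc or Hdac1, among the 15 highest or 15 lowest differences with at least 5 in the higher library, among up to 6 largest called differences of a list, or, in a list without a call, among its 3 largest. Zscan4 genes, Dux, Zfp352, Tcstv1, Tcstv3 and the core pluripotency genes were always named, and others are marked where they are described, apart from genes given only for a promoter motif. Unique windows were 50-base stretches of GENCODE transcripts found in no other gene. RefSeq promoters (GRCm38.p6) were checked for strand against transcripts, and 749 of 1030 matched the gene's strand with 0 reversed. Alternatives were another pseudocount (0.1), no filter, a filter of 5, a fold of 3 and 2 scalings of Ldhb_KO.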

Additional observations from a re-analysis of the deposited data

How the results depend on the processing

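With a pseudocount of 0.1, 396 genes were higher and 622 lower in SO, and at 3-fold 46 and 51, against 205 and 264. A filter of 5 gave 139 and 178. Scaling to the same summed value (Ldhb_KO times 0.973) gave 218 and 239, and scaling by the median ratio (times 1.02) 189 and 277, with the median of all kept genes at 0.04 and -0.02. With no filter the median of the 2-cell-like genes was 1.13 and that of the imprinted genes -0.299, against 2.06 and -0.48, since genes under 1 in both libraries enter, and with a filter of 5, 16 2-cell-like genes were higher. At 3-fold, 6 starvation genes, 1 synthetase, 4 imprinted and 1 germline gene were lower in SO and 1 p53 target was higher, and under the median ratio 1 p53 target was lower. Medians near 0 changed sign: FGF and ERK feedback to 0.0422 with no filter and 0.0320 at the same summed value, primitive endoderm genes to 0.00705 with no filter, DNA methylation machinery to 0.0769 with a filter of 5, and cell cycle genes to 0.0347 at the same summed value. Under the median ratio the Hdac1 complexes went to -0.0106, the respiratory chain to -0.00227 and formative genes to -0.0264. The cause of these changes was not tested. Wnt6, Fzd10, Pdgfrb and Xlr were left out of the counts that follow. Of the 107 called genes that the text or the naming rule names, calls were lost for 3 under the median ratio (Mdm2, Col4a2 and Pgam2), for 4 at the same summed value (Cars, Psmb9, Atf4 and Mthfd2) and for 59 at 3-fold, and 11 were left out by the filter of 5. Calls were gained by Scd1 and Gadd45a under the median ratio, by Nodal at the same summed value and by 5 genes, Scd1 among them, with a pseudocount of 0.1. Of all 166 such genes Slc16a3, near 0, was the only one to change sign, at the same summed value. No paired analysis was possible because each group has 1 library. Of the called genes, 66 of those higher and 86 of those lower in SO were under 5 in both libraries, so their calls rest on low values.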

Other observations

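Gene families outside the lists, chosen after their values were seen, also differed between SO and Ldhb_KO. Of 78 histone genes found, 13 were lower in SO and 1, H3f4, was higher, with 55 kept, 20 of them through Ldhb_KO alone. Among all kept genes 2.04% were lower and 1.59% higher, the background for each family count here. The linker histone gene H1f0 had FPKM of 98.5 in WT and 91.4 in SO, with 119 in Ldha_KO and 334 in Ldhb_KO, a difference of -1.86. H1f10, another linker histone gene, had 91.2, 74.2, 113 and 229, a difference of -1.61. Ldhb_KO stood well above the other 3 libraries in both. Replication-dependent histone transcripts mostly lack poly(A) tails, so their values in polyadenylated RNA are low, as in H3c3 (FPKM 2.77, 0.331, 2.14 and 7.01).

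The metallothionein genes, whose products bind zinc and copper, had 2 of 4 members lower in SO, and the other two were not called. Mt2 had FPKM of 2188 in WT and 1124 in SO, with 3834 in Ldha_KO and 3481 in Ldhb_KO, a difference of -1.63, and Mt1 differed by -1.37. Of 9 Xlr3, Xlr4 and Xlr5 genes, of an X-linked family, 8 were kept, 4 of them through Ldhb_KO alone, and 5 were lower in SO. Their summed FPKM was 12.96 in WT and 16.2 in SO, with 62.2 in Ldha_KO and 49.7 in Ldhb_KO. Several copies are alike, and unique windows made up 9.27% of Xlr5b. Xlr itself, outside this count and chosen after its values were seen, went the other way, at 0.58 (FPKM 2.17 in SO and 1.12 in Ldhb_KO). Of 44 MHC genes, 19 were kept, 5 of them through Ldhb_KO alone. SO was lower for 5, among them the class I gene H2-K1 (22.9 in SO and 50.03 in Ldhb_KO). Of 12 Prame family genes, 7 were kept, 3 of them through SO alone. SO was higher for 5, among them Pramel6, with 2.95, 9.55, 9.44 and 1.19.

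Amino acid handling beyond the starvation list also held called genes. Of 43 amino acid transporter genes found, 29 were kept. Of these, 3 were lower in SO and none was higher, beside 2.04% and 1.59% among all kept genes. Slc1a4, a carrier of neutral amino acids, had the largest difference, at -1.86 (FPKM 8.84, 4.17, 6.84 and 17.7). Aldh18a1, the enzyme before Pycr1 in proline synthesis, had 22.4, 14.3, 23.2 and 48.7, a difference of -1.70. Mat2a, which makes S-adenosylmethionine, was lower in Ldhb_KO than in any other library, at 267, 264, 272 and 105, a difference of 1.32. Sgk1, a kinase gene, had 147, 146, 83.6 and 54.3, a difference of 1.41.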
